A study of Mus musculus with 6 samples.

Results

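The 10 genes described here are the core of the YAP and TEAD pathway as kidney RNA shows it: the coactivator genes Yap1 and Wwtr1 (which encodes TAZ), the 4 TEAD genes and the target genes Ccn1, Ccn2, Ankrd1 and Amotl2. They were taken by gene symbol, all 10 were found among the 56691 genes of the count files, and all 10 had enough counts to be tested. Total RNA of whole kidney was sequenced from 3 control C57BL/6 male mice and from 3 male mice with cisplatin-induced chronic kidney disease, 1 library per mouse. Injections into the abdomen began at 9 weeks of age and were given once a week, 4 in all, with saline for the controls and 8 mg/kg cisplatin for the injured mice, and kidneys were taken at week 7. Cisplatin is a platinum drug that crosslinks DNA and injures the proximal tubule. The question the comparison answers is how the mRNA of these genes stood in the kidney after repeated cisplatin.

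YAP and TAZ have no DNA-binding domain of their own and act on genes by binding TEAD factors, which sit on a short DNA element. When the Hippo kinases are active, LATS kinases phosphorylate YAP and TAZ, and 14-3-3 proteins then hold them in the cytoplasm. When the kinases are quiet, as on a stiff matrix or in spread cells, YAP and TAZ enter the nucleus. In the kidney the pathway is known for its part in nephron development and in the response of tubule cells and fibroblasts to injury. RNA counts measure transcript levels, and neither the phosphorylation nor the location of the proteins was measured in these libraries.

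Promoter sequences of 3 target genes are shown first, searched for the letters of the TEAD element. Binding of the factors was not measured. In the RefSeq promoter table (build GRCm38.p6), 7 of the 10 genes had an entry, and Tead1, Tead4 and Ccn2 had none. The 250 bases before each transcription start were searched on both strands for the letters GGAATG, the core of the TEAD element, which reads CATTCC on the other strand. These letters were present in 12.6% of the 32851 promoters of the table. Among the 7 genes, 6 had a match in at least 1 promoter (Yap1, Wwtr1, Tead3, Ccn1, Ankrd1 and Amotl2), with 8 of 10 promoters in all, of which the 2 of Wwtr1 overlap each other and share their match. Tead2 had no match. For the AP-1 element, searched as TGANTCA on both strands, 6.75% of all promoters and 0 of these 10 had a match. The promoters of 3 targets are printed below, 5′ to 3′ on the strand of the gene and up to the transcription start, with the matches in capitals. The matches in the Ankrd1 promoter (chr19:36119845-36120094 in GRCm38.p6, minus strand) begin 210 and 123 bases before the start. The match in the Ccn1 promoter (chr3:145649986-145650235 in GRCm38.p6, minus strand) begins 103 bases before the start. The match in the Amotl2 promoter (chr9:102717554-102717803 in GRCm38.p6, plus strand) begins 65 bases before the start. A match of letters is a description of the sequence and does not show that a factor binds there.
Ankrd1: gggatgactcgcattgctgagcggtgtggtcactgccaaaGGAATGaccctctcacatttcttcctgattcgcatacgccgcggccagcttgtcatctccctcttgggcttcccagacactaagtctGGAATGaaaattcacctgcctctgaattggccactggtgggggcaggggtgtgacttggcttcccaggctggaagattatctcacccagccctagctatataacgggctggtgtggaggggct
Ccn1: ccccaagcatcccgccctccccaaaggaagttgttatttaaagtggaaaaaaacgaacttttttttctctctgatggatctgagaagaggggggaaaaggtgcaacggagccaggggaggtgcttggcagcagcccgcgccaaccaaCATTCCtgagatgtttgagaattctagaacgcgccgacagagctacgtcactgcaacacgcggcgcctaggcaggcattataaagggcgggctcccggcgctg
Amotl2: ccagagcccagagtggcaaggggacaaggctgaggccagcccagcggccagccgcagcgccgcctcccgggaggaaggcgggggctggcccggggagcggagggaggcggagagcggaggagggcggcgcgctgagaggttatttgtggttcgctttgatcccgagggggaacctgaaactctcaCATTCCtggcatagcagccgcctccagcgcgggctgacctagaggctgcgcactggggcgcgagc

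Counted read pairs numbered 21891855 to 26627554 per library. The control libraries lay close together, and the cisplatin libraries were spread: along the second principal component of log2 CPM (6.69% of the variance), cisplatin replicate 1 stood at 26.3, replicate 2 at -5.41 and replicate 3 at -24.2, against -4.16 to 8.40 in control. Levels are given as CPM (counts scaled to one common library size, after TMM factors for composition), differences as the log2 fold change from edgeR's quasi-likelihood test, and a gene is called higher or lower when its Benjamini-Hochberg adjusted p over all 15662 tested genes is under 0.05. A positive log2 fold change means a higher level after cisplatin. In whole kidney, fewer cells of a type and less RNA per cell cannot be told apart. The tissue carried kidney markers, with all 8 listed genes of the proximal tubule and all 6 of the podocyte tested. The markers of striated muscle had at most 2 counts for any gene in any library, and Myh4 was at 0 in all 6.

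Of the 10 genes, 6 were higher after cisplatin and 0 were lower, where 24.5% of all tested genes were higher and 22.8% lower. The 10 genes and the gene lists below were chosen with earlier results of these data known. Their counts beside these shares are therefore a description and not a test of a list. The genes called higher were Ankrd1, Tead3, Wwtr1, Tead2, Tead1 and Ccn2. Apart from Ankrd1, which rose 5.62-fold, these rises were small, from 1.27-fold to 1.57-fold. The median log2 fold change of the 10 was 0.37, against 0.048 for all tested genes. By unadjusted p under 0.05 in edgeR and by DESeq2, 0 of the 10 were lower as well. At an adjusted p under 0.01, which 16.4% of all tested genes passed with a higher level, 3 of the 10 were called: Ankrd1, Tead3 and Wwtr1. These 3 genes were also the ones called under every one of the 16 other fits that were made. All 3 cisplatin libraries lay above all 3 control libraries for 5 of the 10 genes, and this was so for 30.2% of all tested genes.

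**Figure D1:**
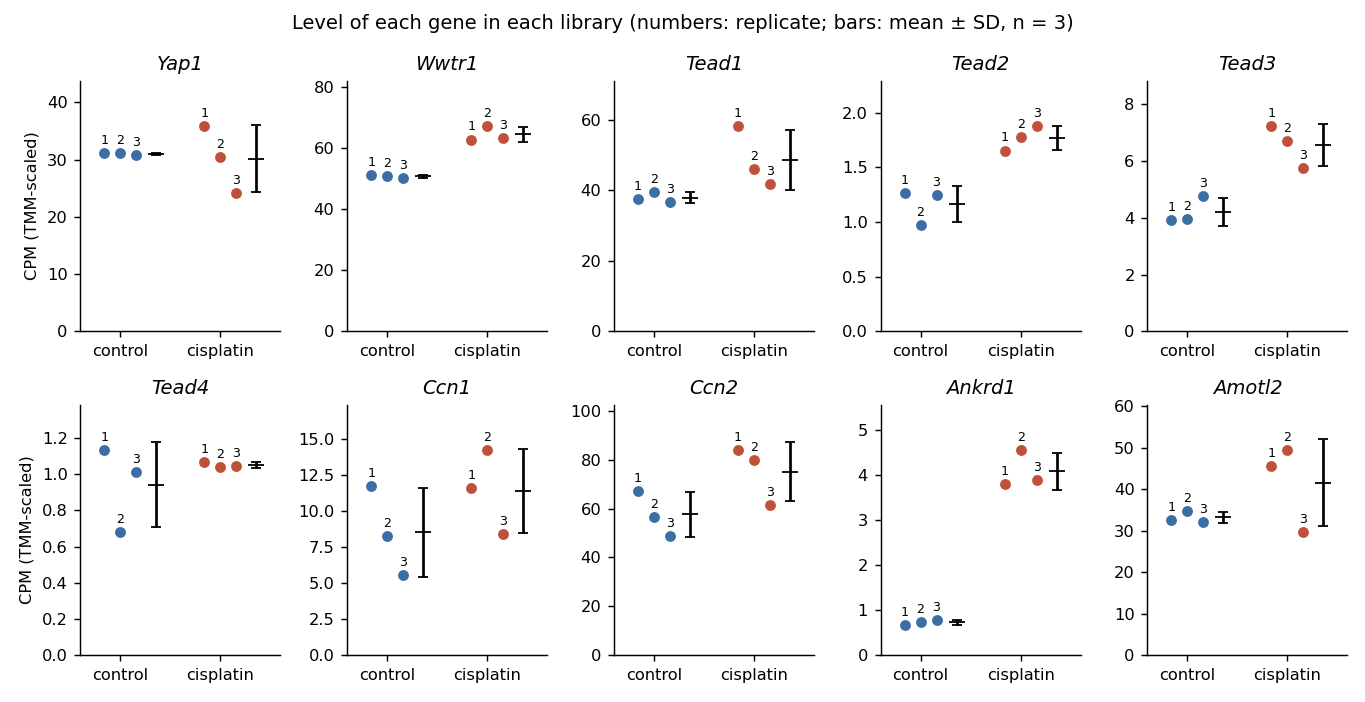
Level of each of the 10 genes in CPM (y axis, from 0, a scale of its own in each panel) in the 3 control (blue) and 3 cisplatin libraries (red); numbers name the replicate, and black bars give the mean ± SD (n = 3). Ankrd1 stands at 0.673 to 0.769 CPM in control and at 3.79 to 4.56 CPM after cisplatin, and Yap1 at 31.0 ± 0.213 and 30.2 ± 5.85 CPM.

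The scaling of the libraries shifts all genes together. When libraries were scaled by their totals and not by TMM factors, the median over all genes went from 0.048 to 0.48 on the log2 scale, 54.3% of genes were higher (86.1% of the genes called, against 51.8%), and 8 of the 10 genes described here were called higher. With upper-quartile factors the median was 0.14, 62.3% of the called genes were higher, and 7 of the 10 were called. Relative to the median of all genes, no member moved by more than 0.0173 on the log2 scale among the 4 scalings tried. Relative to that median, Yap1 stood at -0.08 with TMM factors and at -0.07 with library totals, Wwtr1 at 0.30 under both, and Ankrd1 at 2.44 under both.

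Of the coactivators, Wwtr1 was called higher and Yap1 was not called. Gene positions here and below are in GRCm39, unlike the promoter positions above, which are in GRCm38.p6. Yap1 (chr9:7932000-8004661, minus strand) had 31.2, 31.1 and 30.8 CPM in the control libraries. After cisplatin its levels were 35.9, 30.5 and 24.2 CPM. The control values were almost the same, and the cisplatin libraries lay on both sides of them. The log2 fold change was -0.037, with a 95% interval from -0.32 to 0.24, and the adjusted p of 0.832 (edgeR) gave no call. Its sign turned with upper-quartile factors (0.049), with library totals (0.41) and without cisplatin replicate 3 (0.065), also with no call.
Wwtr1 (chr3:57363067-57483331, minus strand) had 51.0, 51.0 and 50.3 CPM in control kidneys. The cisplatin libraries held 62.8, 67.2 and 63.4 CPM. Every cisplatin library was above every control library, and the gene rose 1.27-fold (95% interval 1.13 to 1.43, edgeR adjusted p = 0.00403). Leaving out any 1 library kept its log2 fold change between 0.32 and 0.36.

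Because both transcripts come from the same libraries, their balance can be read without any scaling between libraries. Counts were divided by the summed exon length of each gene (9375 bases for Yap1 and 11834 bases for Wwtr1), and the share of Wwtr1 in the sum was taken. It was 56.4%, 56.5% and 56.4% in control, that is 56.5% ± 0.0624 (SD, n = 3). After cisplatin it was 58.1%, 63.6% and 67.5%, that is 63.1% ± 4.71 (SD, n = 3). The cisplatin libraries all lay above the control libraries and differed among themselves by more than the control libraries did (two-sided exact permutation test of the means, p = 0.1, the smallest that 3 against 3 allow). The smallest difference from control, in cisplatin replicate 1, was in the library with the highest Yap1 level.

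**Figure D2:**
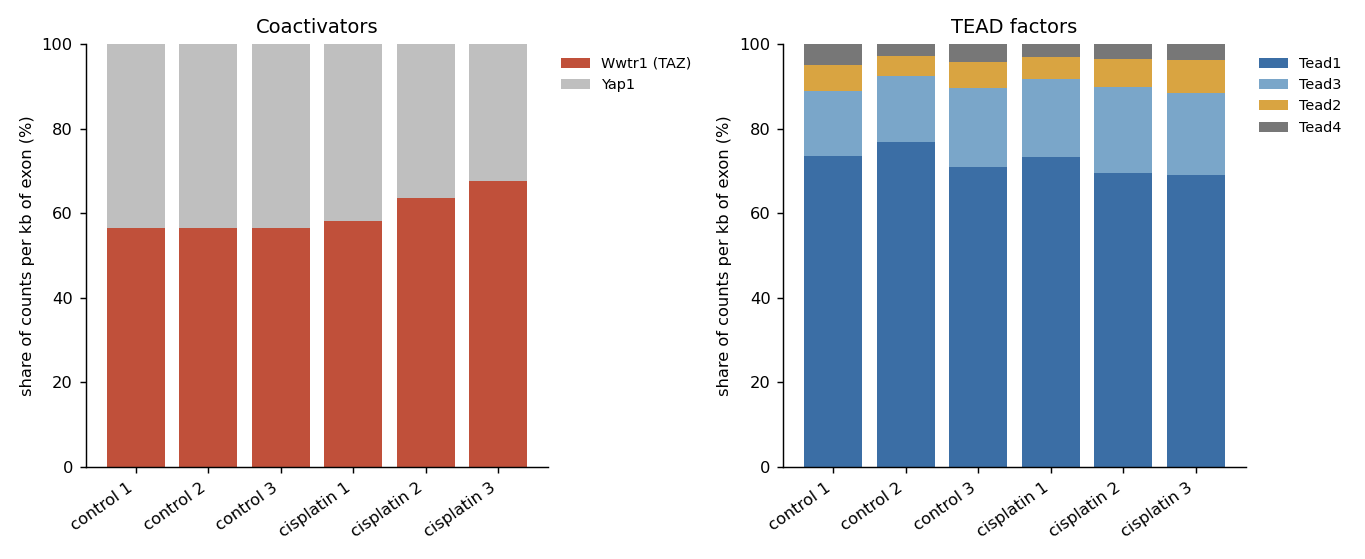
Share of each gene in the counts per kb of exon (y axis, percent) of Yap1 and Wwtr1 (left) and of Tead1 to Tead4 (right), 1 bar per library. The share of Wwtr1 is 56.4% to 56.5% in control and 58.1% to 67.5% after cisplatin; Tead1 holds between 69.1% and 76.8% of the TEAD counts per kb in every library.

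The TEAD genes encode the DNA-binding partners of YAP and TAZ, and 3 of the 4 were higher after cisplatin. Tead1 (chr7:112278522-112506014, plus strand) had 37.5, 39.5 and 36.7 CPM in control. It had 58.2, 46.0 and 41.7 CPM after cisplatin. The groups did not overlap, and replicate 1 was well above the other cisplatin libraries. Tead1 rose 1.28-fold (edgeR adjusted p = 0.0276). The call was lost without any 1 of the control libraries and without cisplatin replicate 1, with the log2 fold change moving from 0.36 to 0.21 in the latter case (adjusted p = 0.0550).
Tead3 (chr17:28550645-28569791, minus strand) had 3.91, 3.94 and 4.76 CPM in control. Its cisplatin levels were 7.23, 6.70 and 5.76 CPM. Here too the groups were apart, and the 1.57-fold rise had a 95% interval from 1.26 to 1.96 (edgeR adjusted p = 0.00393).
Tead2 (chr7:44865172-44883071, plus strand), best known from the early embryo, was rare, with 20 to 30 counts per library in control and 43 to 53 after cisplatin. That made 1.26, 0.974 and 1.25 CPM in control against 1.65, 1.78 and 1.88 CPM. The groups did not overlap, and the 1.51-fold rise passed the test (edgeR adjusted p = 0.034). The call changed with the fit. DESeq2 gave an adjusted p of 0.151, edgeR without a filter on low counts gave 0.0638, and the call was also lost without any 1 of the control libraries, without cisplatin replicate 2 and without cisplatin replicate 3.
Tead4 (chr6:128201251-128277786, minus strand) had 14 to 31 counts in any library. Its levels were 1.14, 0.682 and 1.01 CPM in control and 1.07, 1.04 and 1.05 CPM after cisplatin. The cisplatin libraries fell inside the control range, and the gene was not called (edgeR adjusted p = 0.655). The interval of the log2 fold change ran from -0.41 to 0.71, so that a change of either sign within it was not resolved.

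Per kb of exon, Tead1 was the main TEAD transcript in both groups. It held 73.7% ± 2.94 of the TEAD counts per kb in control and 70.6% ± 2.39 after cisplatin (SD, n = 3 each). Tead3 held 16.5% ± 1.81 and 19.4% ± 1.01, Tead2 held 5.62% ± 0.795 and 6.52% ± 1.28, and Tead4 held 4.10% ± 1.03 and 3.47% ± 0.436. For each of the 4 shares the groups overlapped, and the two-sided exact permutation tests gave p from 0.2 to 0.5 for n = 3 against 3. Adjusted over the 5 shares tested, the exact permutation p was 0.333 for the shares of Wwtr1, Tead1 and Tead3 and 0.5 for Tead2 and Tead4. With 3 libraries against 3 the exact permutation test cannot go below p = 0.1. It could therefore call no difference in the mixture of TEAD transcripts, whatever its size.

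Ankrd1 (chr19:36089352-36097506, minus strand) encodes an ankyrin repeat protein of striated muscle that is also a widely used readout of YAP and TAZ. Its counts were 16, 15 and 16 in control and 110, 136 and 89 after cisplatin. In CPM this was 0.673, 0.731 and 0.769 against 3.79, 4.56 and 3.88. The control libraries hardly differed, and the lowest cisplatin library was far above the highest control library. The log2 fold change was 2.49 (standard error 0.193, 95% interval of the fold from 4.18 to 7.55, edgeR adjusted p = 3.6e-06). It stayed between 2.40 and 2.54 when any 1 library was left out. Counts that ignore the strand gave 2.70. Per kb of exon Ankrd1 was below Tead3 in each control library and above it in each cisplatin library. Even after cisplatin, with 1.37 ± 0.141 CPM per kb, it was the lowest of the 4 targets.

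Ccn1 and Ccn2 encode secreted matricellular proteins that bind integrins, and Ccn2, long called connective tissue growth factor, is known for its part in fibrosis. Ccn2 (chr10:24471333-24474900, plus strand) was the most abundant of the 10 per kb of exon in both groups, with 18.1 ± 2.91 CPM per kb in control and 23.6 ± 3.79 after cisplatin (SD, n = 3 each). It had 67.4, 56.5 and 48.9 CPM in control. After cisplatin it had 84.1, 80.0 and 61.4 CPM. Cisplatin replicate 3 lay below control replicate 1, so that the groups overlapped. The 1.30-fold rise came close to the threshold (edgeR adjusted p = 0.0435). It was not called with DESeq2 size factors in edgeR (adjusted p = 0.0527) or with counts that ignore the strand (0.0834). It was also lost without control replicate 2 (0.122), without control replicate 3 (0.188), without cisplatin replicate 1 (0.112) and without cisplatin replicate 2 (0.136).
Ccn1 (chr3:145352720-145355738, minus strand) varied most among the control mice, with 11.7, 8.28 and 5.53 CPM. The cisplatin libraries had 11.6, 14.2 and 8.42 CPM. The groups overlapped over most of their range, and the log2 fold change of 0.42 (95% interval -0.13 to 0.97) did not pass the test (edgeR adjusted p = 0.185). Control replicate 1 had the highest level of Ccn1 and of Ccn2 in its group. Without it the log2 fold change of Ccn1 was 0.73 and was called (adjusted p = 0.0351), and without control replicate 3 it was 0.19 (adjusted p = 0.541). It was also called by edgeR with library totals (adjusted p = 0.0375) and without a filter on low counts (0.00992).
Amotl2 (chr9:102593836-102610617, plus strand), a target whose product also holds YAP at cell junctions, had 32.7, 34.8 and 32.1 CPM in control. It had 45.7, 49.5 and 29.6 CPM after cisplatin. Replicates 1 and 2 were above the controls and replicate 3 was below them. The log2 fold change of 0.33 (95% interval -0.02 to 0.68) was not called (edgeR adjusted p = 0.113), and without cisplatin replicate 3 it was 0.49 and was called (adjusted p = 4.1e-04). Upper-quartile factors (adjusted p = 0.0445), library totals (0.0128) and a fit without a filter on low counts (0.0137) called it as well.

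**Figure D3:**
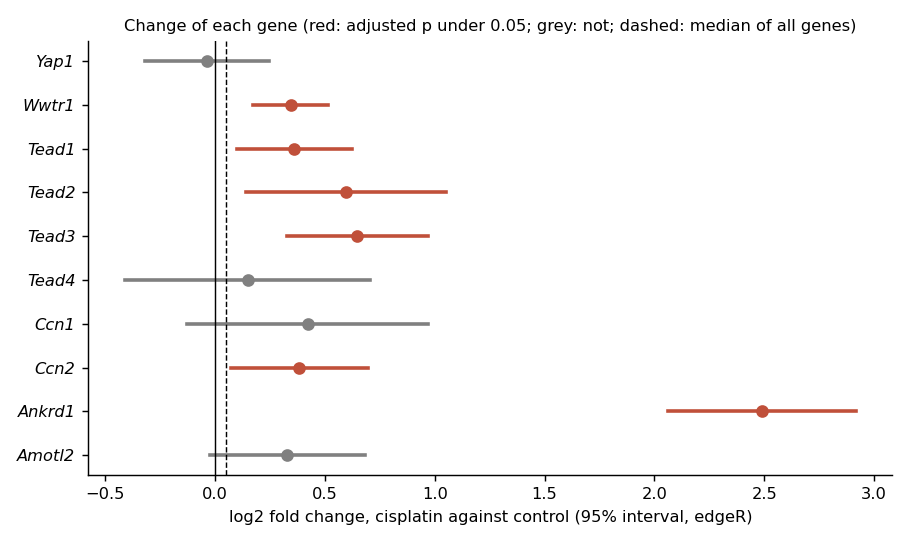
log2 fold change of each of the 10 genes after cisplatin against control (x axis; points, with bars for the 95% interval of edgeR's fit, n = 3 each); red marks an adjusted p under 0.05, grey a higher one, and the dashed line is the median of all tested genes (0.048). The interval of Ankrd1, from 2.06 to 2.92, lies apart from those of the other 9 genes, of which that of Tead2 reaches highest, to 1.05.

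Cisplatin replicate 3 had the lowest level of the 3 cisplatin libraries for 6 of the 10 genes (Yap1, Tead1, Tead3, Ccn1, Ccn2 and Amotl2), and replicate 1 the highest for 5. The other 4 genes, Wwtr1, Tead2, Tead4 and Ankrd1, did not have their lowest cisplatin level in replicate 3. In the same order of replicates 1 to 3, the TMM factors were 1.26, 1.18 and 1.05, against 0.844 to 0.894 in control, and read pairs without an annotated exon made up 9.32%, 6.63% and 6.09% of all pairs, against 4.63% to 4.86% in control. The part of these differences in the results was not tested.

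The order of the levels per kb of exon was led by Ccn2 in both groups. In control it ran from Ccn2 through Amotl2 (4.70 ± 0.202 CPM per kb), Wwtr1 (4.29 ± 0.0370), Ccn1 (4.19 ± 1.53), Yap1 (3.31 ± 0.0227) and Tead1 (2.79 ± 0.109) to Tead3 (0.626 ± 0.0718), Ankrd1 (0.243 ± 0.0163), Tead2 (0.213 ± 0.0298) and Tead4 (0.155 ± 0.0386; SD, n = 3 each). The 3 values of Ccn1 spanned those of Amotl2, Wwtr1 and Yap1 and overlapped those of Tead1, so that its place in the order was not set. Ankrd1 overlapped Tead2, and Tead2 overlapped Tead4. After cisplatin the mean levels per kb were 5.62 ± 1.43 CPM for Ccn1 and 5.45 ± 0.201 CPM for Wwtr1, and the libraries of both lay within the range of Amotl2, from 4.19 to 7.02 CPM, but for the lowest of Ccn1 at 4.14 CPM. Tead1 (3.58 ± 0.630 CPM per kb) overlapped Yap1 (3.22 ± 0.624), and its highest library also reached the range of Ccn1. Ankrd1, Tead3, Tead2 and Tead4 followed in this order without overlap.

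The other genes of the pathway were counted against the same shares of all tested genes, 24.5% higher and 22.8% lower. Of the 7 core Hippo genes (Stk3 and Stk4, the MST kinases, with Sav1, and Lats1 and Lats2 with Mob1a and Mob1b), 0 were higher and 1 was lower in edgeR. By unadjusted p under 0.05, 0 were higher and 1 was lower, and DESeq2 called 0 higher. The gene that fell was Mob1b, a LATS cofactor, from 54.4 ± 2.46 to 42.4 ± 2.63 CPM (SD, n = 3 each), with an edgeR adjusted p of 0.00529. Mob1a, the other MOB1 gene, went the other way without a call. It had 57.9 ± 0.880 CPM in control and 65.2 ± 3.79 CPM after cisplatin (edgeR adjusted p = 0.106). The log2 fold change was 0.032 for Lats1 and -0.12 for Lats2, neither of them called.
Further upstream, 8 of 17 tested genes were higher and 0 lower (24.5% and 22.8% of all tested genes), and Dchs2, with at most 11 counts, was not tested. Wwc1, the scaffold KIBRA that activates LATS, rose from 49.1 ± 4.98 to 91.7 ± 11.1 CPM. The giant protocadherins Fat1 and Fat4 rose by 1.30 and 1.36 on the log2 scale, and the kinase Map4k4 by 0.75. Across all 25 listed genes of this group, 24 were tested, with a median log2 fold change of 0.14. Scaled by library totals, 18 of them were called higher, as were 54.3% of all tested genes.

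Of 14 genes for other proteins that bind YAP, TAZ, TEAD or LATS, 12 were tested, 5 were higher and 1 was lower (24.5% and 22.8% of all tested genes), with a median log2 fold change of 0.33. Ptpn14, a phosphatase that binds YAP, rose by 0.91, Limd1, a LIM protein that binds LATS, by 0.40 and Vgll4, a competitor of YAP for TEAD, by 0.40 (edgeR adjusted p of 0.00225, 0.00280 and 0.0112). The 14-3-3 gene Ywhaz fell by 0.32 on the log2 scale (edgeR adjusted p = 0.013). With library totals 10 of these genes were higher and 0 lower, where 54.3% of all tested genes were higher. With upper-quartile factors the counts were 8 and 0, where 30.5% of all tested genes were higher.

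A published signature of YAP and TAZ targets in cancer cells holds 18 further genes, of which 2, Lats2 and Ptpn14, are also in the lists above. Of 17 tested, 9 were higher and 3 were lower (24.5% and 22.8% of all tested genes), with a median log2 fold change of 0.39. Myof, a membrane repair protein, rose most in this list, by 2.61 on the log2 scale (edgeR adjusted p = 6.2e-07). Its mean level was 20.1 ± 1.03 CPM in control and 122 ± 27.7 CPM after cisplatin (SD, n = 3 each). The receptor kinase gene Axl rose by 1.42, the matrix gene Ccdc80 by 1.37 and Gadd45a, a stress gene that p53 also induces, by 0.72. In the other direction Igfbp3, which binds insulin-like growth factors, fell from 151 ± 13.1 to 51.0 ± 2.01 CPM. Nt5e, the ecto-5′-nucleotidase CD73, fell from 134 ± 6.84 to 51.6 ± 7.20 CPM (SD, n = 3 each), and Dock5 fell by 0.57 on the log2 scale. The signature genes thus went both ways, and Igfbp3 had the smallest adjusted p of the list (5.6e-07, edgeR). Of the 4 remaining CCN genes, 2 were tested. Ccn4 rose from 3.11 ± 0.972 to 6.63 ± 1.72 CPM (edgeR adjusted p = 0.00422), Ccn3 did not pass the test (adjusted p = 0.189), and Ccn5, with at most 4 counts, and Ccn6, at 0 in all libraries, were not tested.

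**Figure D4:**
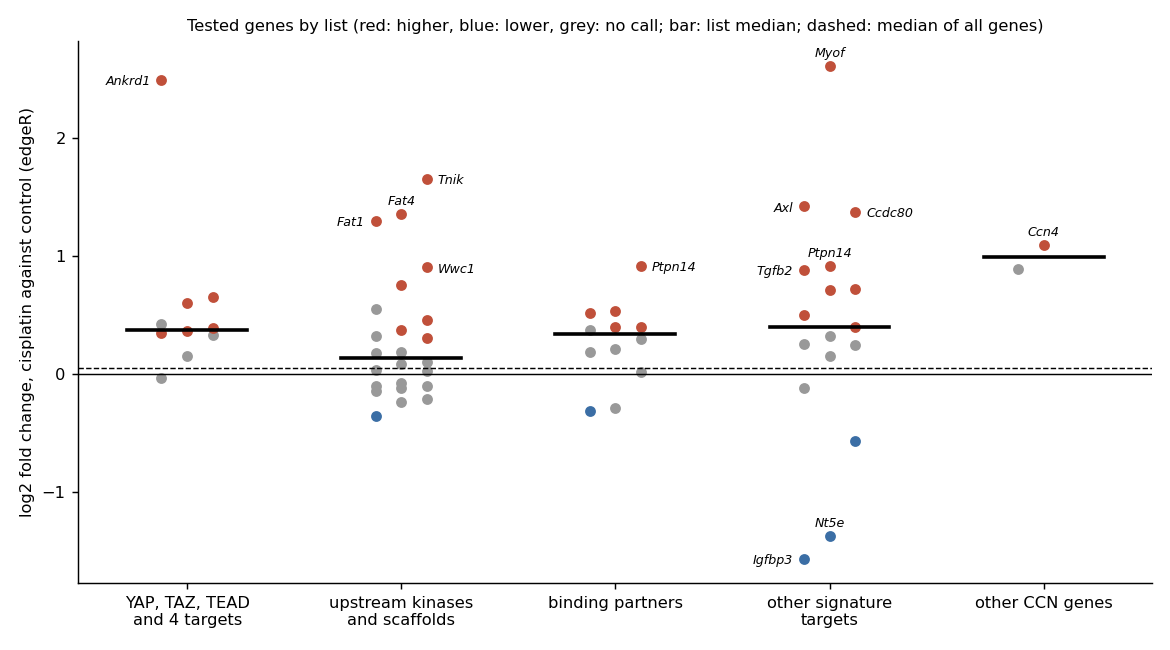
log2 fold change after cisplatin against control (y axis, edgeR, n = 3 each) of every tested gene, by list; red genes were higher, blue genes lower and grey genes not called at an adjusted p of 0.05, black bars are list medians and the dashed line is the median of all tested genes. The list medians are 0.37, 0.14, 0.33, 0.39 and 0.99 from left to right, and Ankrd1 (2.49) and Myof (2.61) stand highest.

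Markers of several cell types differed between the same groups, where 24.5% of all tested genes were higher and 22.8% lower. All 6 listed genes of injured tubules were higher, with a summed level of 233 to 267 CPM in control and 1994 to 2351 CPM after cisplatin. All 8 of the proximal tubule were lower, with a median log2 fold change of -1.42 and a sum of 31416 to 31752 CPM in control and 4264 to 4545 CPM after cisplatin. Kap alone made up 20737 to 21611 CPM of the control sum and 164 to 412 CPM of the cisplatin sum, and the other 7 markers summed to 9806 to 11015 CPM and 3960 to 4280 CPM. Of the fibroblast markers 6 of 7 were higher, with a sum of 172 to 217 CPM in control and 368 to 602 CPM after cisplatin, and of the markers of smooth muscle and pericytes 4 of 7 were higher and 1 was lower (180 to 207 CPM against 236 to 291 CPM). Of the macrophage markers 5 of 6 were higher (72.6 to 88.6 CPM against 212 to 250.1 CPM). Endothelial markers were lower in 3 of 7 (297 to 307 CPM against 216 to 257 CPM). Podocyte markers were higher in 2 of 6 (169 to 182 CPM against 178 to 248 CPM), near the share of all tested genes. Of the distal nephron markers 5 of 8 were higher and 2 lower (3497 to 3766 CPM against 3013 to 3403 CPM), and both T cell markers that could be tested were higher. Of the 4 fat markers 1 was lower, also near the share of all tested genes. The 4 adrenal markers had at most 12 counts, with Cyp11b2 at 0 in all libraries. How much of the rise of Ankrd1, Wwtr1 and the TEAD genes went with these cell types was not tested. For striated muscle, where Ankrd1 is abundant, the summed marker level was 0.0487 to 0.192 CPM in control and 0 to 0.134 CPM after cisplatin. A part of striated muscle in the rise of Ankrd1 was not tested.

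**Figure D5:**
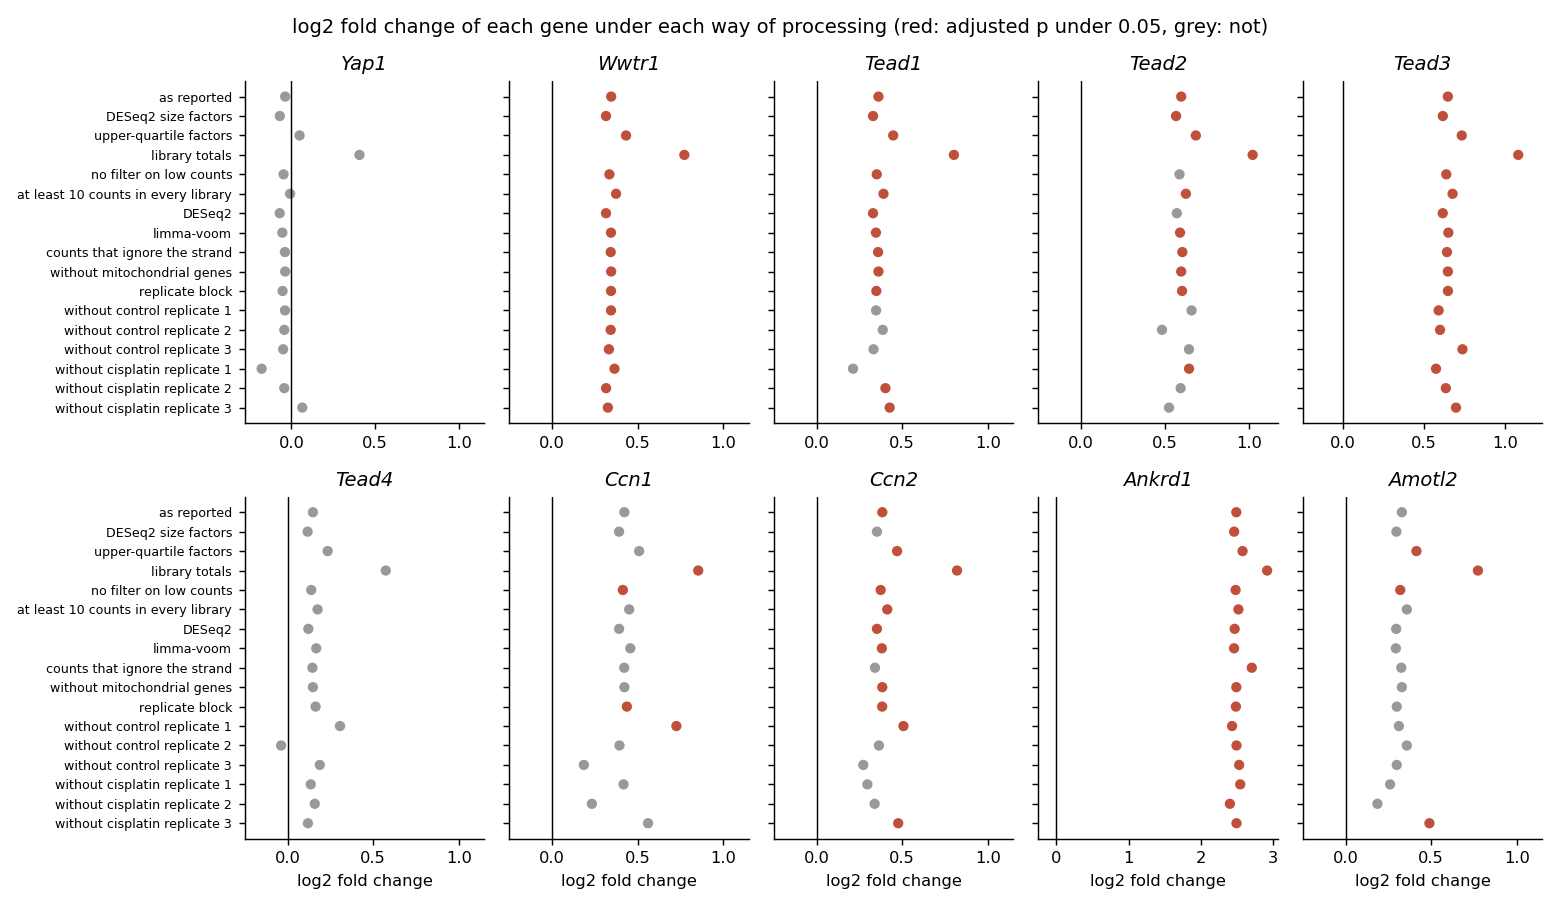
log2 fold change of each of the 10 genes (x axis) under each way of processing the counts (rows), in red for an adjusted p under 0.05 and in grey otherwise. Wwtr1, Tead3 and Ankrd1 are red in every row, and library totals move all 10 genes to the right.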

How the data were processed

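Kidney total RNA of 3 control and 3 cisplatin-treated mice was analysed. The authors deposited raw counts of read pairs per gene, without normalization, from a stranded kit, after Cutadapt trimming and STAR alignment to mm39 (GRCm39). For STAR, the settings and annotation release were not given in the sources used here. Of the stranded counts, 96.7% to 97.2% lay on the transcript strand, and these were taken. Rows without a gene were left out; pairs without a gene feature made up 4.63% to 9.32%. Symbols and exon lengths (all exons of a gene merged) came from GENCODE vM39, which holds 56017 of the 56691 genes. No member shares exon bases with another gene on its own strand, and the opposite strand held at most 2.22% of a member's stranded counts (Tead2). With a gene on the opposite strand, Ccn2 shares 1164 of 3187 exon bases, Ankrd1 724 of 2983 and Ccn1 468 of 2032. Yap1 and Tead2 share fewer. The part of these overlaps in the counts that ignore the strand was not tested.

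The quasi-likelihood test of edgeR 4.0.16 was fitted on all 6 libraries without covariates, after filterByExpr (minimum count 10, minimum total 15) and TMM scaling. CPM were computed on TMM-scaled library sizes. For log2 CPM a prior count of 2 was added. Shares were compared by exact permutation tests. The fit was tested on simulated data. Replicate libraries differed by more than counting noise (chi-square per gene 4.96 to 40.5). Alternatives were DESeq2 1.42.0, limma-voom (limma 3.58.1), other scaling factors, other low-count filters, unstranded counts, a fit without mitochondrial genes, a replicate block, a fit without each library in turn and a threshold of 0.01. R 4.3.3, Python 3.11.15, scipy 1.17.1 and matplotlib 3.10.9 were used.

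The members and gene lists were chosen with earlier results of these data known. The text names every member, in each other list and direction the 4 called genes of smallest adjusted p, and, for Yap1 and Ccn2, the 3 genes nearest in profile, apart from items that are not reported here. Lats1, Lats2, Mob1a, Ccn3 and genes too rare to test were named after their values were seen.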

Additional observations from a re-analysis of the deposited data

How the results depend on the processing

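Of 152 alternative values of the counts of called genes and of the shares, 132 kept within 1.5 times the count or within the spread between libraries, and 20 did not. The number of members called higher was 3 at an adjusted p under 0.01, 8 with library totals, and 3 to 6 when 1 library was left out, with 3 without control replicate 2 and 3 without control replicate 3. It was 5 to 7 under the other alternatives, and 0 members were lower in any of them. Of all tested genes, 16.4% were higher at an adjusted p under 0.01 and 54.3% with library totals. Without 1 library the share was 18.7% to 25.2%, at 19.0% without control replicate 2 and 18.7% without control replicate 3. Under the other alternatives it ran from 14.1% without a filter on low counts to 30.5% with upper-quartile factors. Of 15662 tested genes, 1375 were lower with library totals, 2890 with upper-quartile factors and 3796 with the replicate block. Of the 24 tested kinases and scaffolds, core and upstream together, 18 were higher and 0 lower with library totals, and 2 were lower with the replicate block. Without 1 library in turn there were 6 to 10 higher and 1 to 2 lower. Of the binding partners, 10 were higher and 0 lower with library totals, 8 and 0 with upper-quartile factors, and 3 and 0 at an adjusted p under 0.01. In the same list 2 were lower without a filter on low counts, with DESeq2 and with the replicate block, and leaving out 1 library gave 3 to 6 higher and 0 to 2 lower. Signature targets higher were 8 to 11 with 1 library left out. The difference in the share of Wwtr1 was 6.60 percentage points, and 4.38 to 9.07 with 1 library left out. That of Tead1 was -3.12, and -4.49 to -1.57. Among single genes, the log2 fold change of Yap1 was positive with upper-quartile factors (0.049), with library totals (0.41) and without cisplatin replicate 3 (0.065), in a range of -0.18 to 0.065 over the fits without 1 library. That of Tead4 was negative without control replicate 2, in a range of -0.038 to 0.31. None of these was called. The cause of these changes was not tested.

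The replicate numbers mark no shared cage, litter or day in the labels. Deviations from the group means correlated at 0.133, 0.142 and 0.0997 between libraries of the same number, and at -0.126 to -0.0259 between the others. Every library thus correlated best with its own number. Deviations cancel out within a group, so that positive values for some pairs push those of other pairs down. With so few libraries this is a weak hint, and a pairing was not tested. With the replicate number as a block, 7 members were higher, Ccn1 being added (adjusted p = 0.0291). Counts of 14 to 53 per library limit what can be said of Tead2 and Tead4.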

Other observations

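Over the 6 libraries, the profiles most like those of a coactivator and of a target were looked up among the 8523 tested genes whose mean log2 CPM was 3 or more, by the Euclidean distance of log2 CPM centred on each gene's mean. Near to Yap1 were Zzef1 (distance 0.0759) and Bicral (0.0838). Nearest to Ccn2 were Dusp7 (0.0940), Sik1 (0.127) and Ripk4 (0.133), with log2 fold changes of 0.40, 0.43 and 0.43. With 6 libraries in 2 groups, this likeness is a description of these values.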
